A study of Mus musculus with 8 samples.

Results

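The guidance genes described here are the semaphorins and their plexin receptors, the ephrins and their Eph receptors, the netrins with the receptors Dcc, Neo1 and the Unc5 family, and the Slits with their Robo receptors. They were picked by symbol from the expression table, without Efnb2 and Ephb4, which gave 65 of the 24963 genes listed: 20 semaphorins, 9 plexins, 7 ephrins, 13 Eph receptors, 10 netrins and netrin receptors and 6 Slits and Robos. Of these, 34 encode ligands and 31 encode receptors. RNA came from whole uteri of C57B6/J females on gestation day 3.5 (GD3.5), 8 weeks old at mating by the labels, after mating with vasectomized males, so that no embryo was in the tissue. The 4 controls, Nr2f2 f/f, had both Nr2f2 alleles floxed and no Cre. The 4 Nr2f2 d/d mice had the same floxed alleles plus a Cre knocked into 1 of the Pgr alleles (Pgr Cre/+), which deletes Nr2f2 in cells that express the progesterone receptor. The controls do not carry that altered Pgr allele, so its effect and that of Nr2f2 loss cannot be told apart here. Each library is 1 uterus, and p-values measure the spread between these mice.

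Guidance molecules were first known for steering growing axons. A ligand on a cell surface or released into the tissue meets a receptor on another cell, and the receptor turns that contact into a change in the cytoskeleton through small GTPases and their exchange factors. The same families pattern blood vessels, set boundaries between epithelial and mesenchymal cells and guide immune cells, and in many of them a co-receptor such as a neuropilin completes the receptor.

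Nr2f2 itself stood at 25.3, 21.8, 25.7 and 23.5 FPKM in Nr2f2 f/f replicates 1 to 4 and at 9.66, 9.42, 6.90 and 9.74 FPKM in Nr2f2 d/d replicates 1 to 4. FPKM scale the fragments of a gene to its length and to the library total, so levels can be set side by side between genes. The targeted mRNA was lower in each mutant than in any control, with 37.1% of the control mean left, and no library went against its label. Depth, recovered from the steps of short genes, was 61500000 to 92650000 fragments. Nr2f2 f/f replicate 2 and Nr2f2 d/d replicate 3 stood apart: their mean correlations with the other libraries were 0.9318 and 0.9464, against 0.9589 to 0.9683 for the other 6. Where leaving either out changes a guidance gene's call, the value without it is given.

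Most of the guidance genes were expressed in the uterus: 53 of 65 had a mean of at least 0.5 FPKM and were tested, and 12 did not. At the study's threshold, that is a change of at least 1.4-fold with an unadjusted p under 0.05, 13 of the 53 differed, which is 24.5% against 8.80% of the 14323 genes tested. Of the 13, 10 were lower in Nr2f2 d/d (4.10% of all genes) and 3 were higher (4.70% of all genes). The lower genes were Sema7a, Sema6b, Sema6c, Sema3g, Plxna2, Plxna3, Efnb3, Slit3, Robo1 and Ntn4, and the higher ones were Ntn1, Unc5b and Sema3b. After Benjamini-Hochberg adjustment over all genes, 3 of the 53 had an adjusted p under 0.05 in limma, 5.66% against 2.62% of all genes. These 3, Sema7a, Efnb3 and Plxna2, were all lower (1.53% of all genes), and 0 members were higher (1.09% of all genes). The members were chosen with earlier results of these data known, so these shares are descriptive only. In what follows, "fell" and "rose" are kept for genes past the adjusted threshold.

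Without the fold, an unadjusted p under 0.05 was found for 21 of 53 members, beside 21.2% of all genes. Of the 21, 16 were lower, beside 12.5% of all genes, and 5 were higher, a share near the 8.66% of all genes. The 8 values parted without overlap for 13 of 53 members (24.5%, against 15.4% of all genes), 10 of them lower (9.91% of all genes) and 3 higher (5.49% of all genes). The median log2 fold change of the 53 was -0.09, beside -0.02 for all genes tested, and 30 of the 53 lay below 0, beside 53.3% of all genes. Ligands and receptors both held calls, with 9 of 30 tested ligands (30.0%) and 4 of 23 tested receptors (17.4%) past the study's threshold, beside 8.80% of all genes. With both libraries that stood apart left out, 14 of 52 members passed the study's threshold, beside 9.37% of all genes, and 3 the adjusted one, Sema7a, Sema3b and Sema6b, beside 3.11% of all genes.

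**Figure D1:**
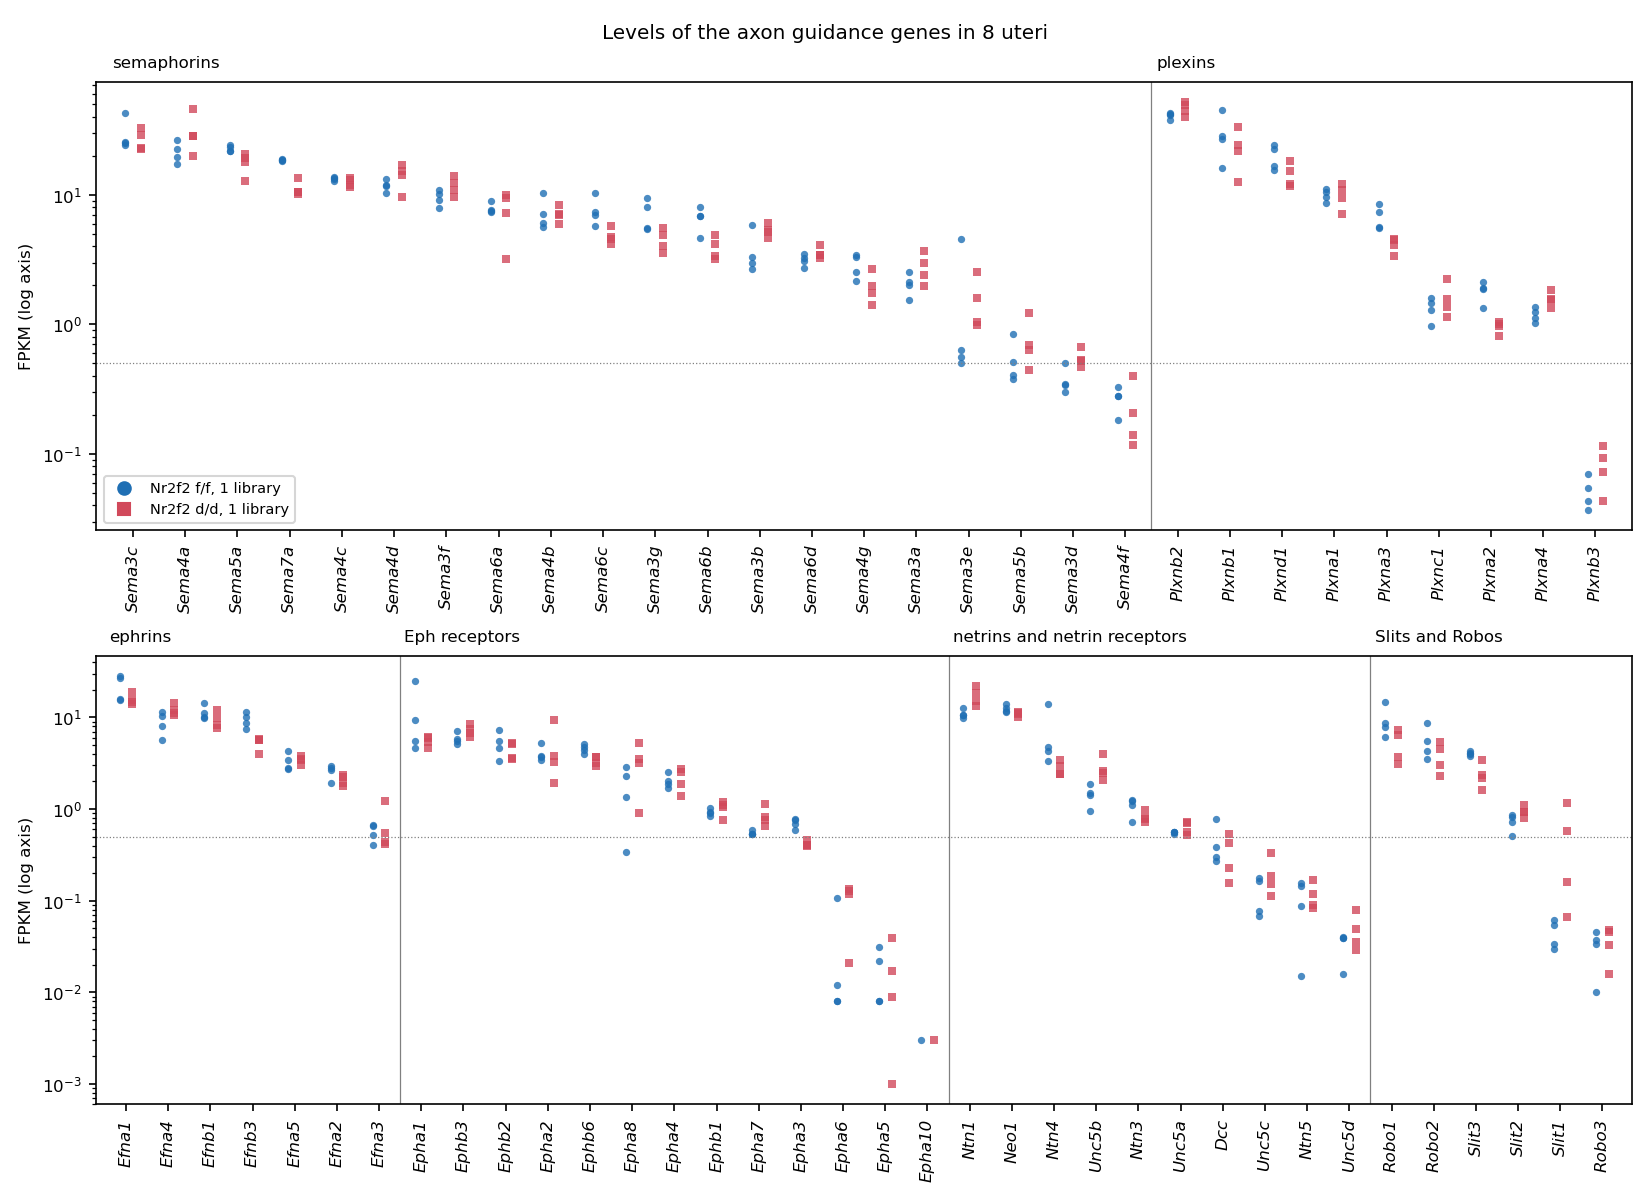
Levels of all 65 genes in the 8 uteri by family, in FPKM on a log axis. Each point is 1 library, circles Nr2f2 f/f and squares Nr2f2 d/d, and the dotted line is the 0.5 FPKM of the filter; the 6 values of 0, all of Epha10, are not drawn. Plxnb2 is highest at 38.1 to 52.1 FPKM and 12 genes have means under the line.

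**Figure D2:**
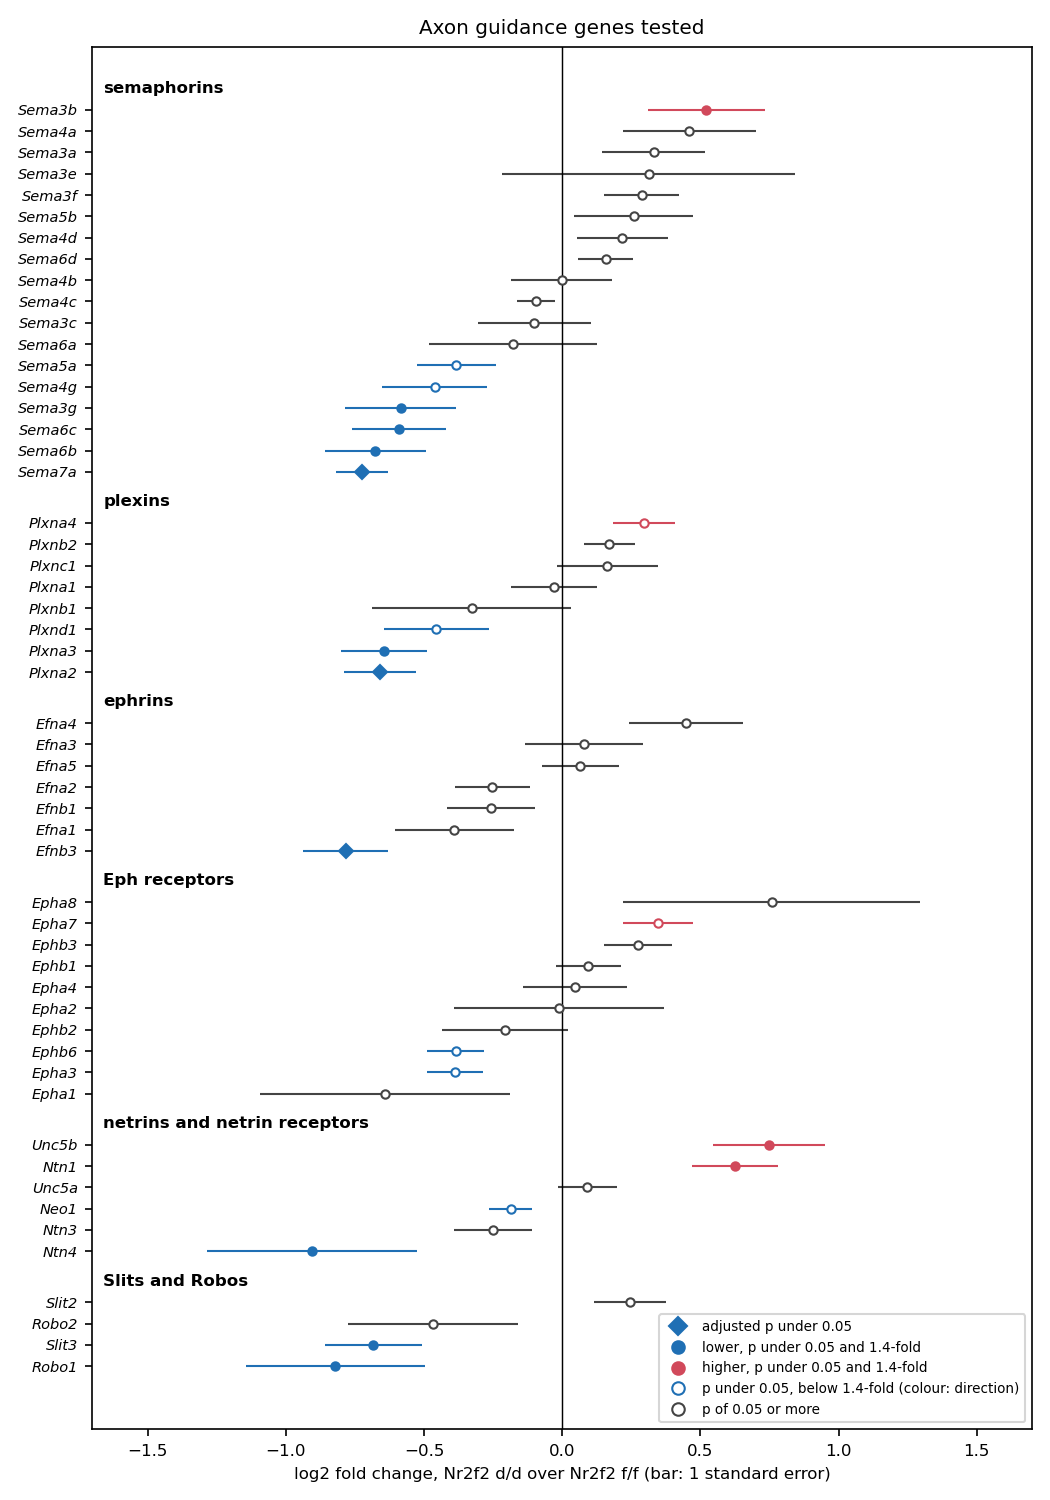
The log2 fold change of each of the 53 tested genes, Nr2f2 d/d over Nr2f2 f/f, with a bar of 1 standard error on each side. Filled marks passed the study's threshold and diamonds the adjusted one; 10 of the 13 filled marks lie below 0.

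Sema7a, the member with the smallest p, was lower in every mutant. It encodes a semaphorin held to the membrane by a lipid anchor, which signals through plexin C1 and integrin β1. The 4 Nr2f2 f/f uteri had 18.7, 19.1, 18.1 and 18.7 FPKM, and the 4 Nr2f2 d/d uteri had 10.1, 10.5, 13.4 and 10.5 FPKM. Controls were nearly level and every mutant was below them, with replicate 3 nearest. Sema7a fell, with a log2 fold change of -0.72 and a standard error of 0.0937 (limma, adjusted p = 0.0142), and its exact permutation p of 0.0286 is the smallest that 4 against 4 can give. With each library left out in turn its adjusted p was 0.00829 to 0.0636, under 0.05 in 5 of 8 fits and above it without control replicate 1 (0.0541) or mutant replicate 1 (0.0530) or 2 (0.0636). Of its receptors, Plxnc1 ranged from 0.975 to 1.60 FPKM in controls and from 1.13 to 2.25 FPKM in mutants, and Itgb1 had means of 119.7 and 116.7 FPKM.

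Sema7a occupies bases 57940112 to 57962865 of chromosome 9 in mm10, plus strand. Its promoter is shown because Sema7a has the smallest p and because NR2F2, an orphan nuclear receptor, binds DNA elements built from AGGTCA or GGGTCA. These are the 250 bases before the RefSeq start, chr9:57939862-57940111, plus strand, GRCm38.p6, with the match to GGGTCA in capitals.
Sema7a: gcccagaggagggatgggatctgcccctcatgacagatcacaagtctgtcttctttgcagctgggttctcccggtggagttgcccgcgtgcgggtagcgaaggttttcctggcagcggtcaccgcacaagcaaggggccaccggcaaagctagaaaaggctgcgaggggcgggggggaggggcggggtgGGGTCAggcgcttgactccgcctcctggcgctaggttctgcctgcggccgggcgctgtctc
The match begins 61 bases before the start. Plxna2, also past the adjusted threshold, had no match in its window, and Efnb3 had no entry. The Plxna2 window, chr1:194619579-194619828, lies inside the annotated span of the gene and not before it. Searching both strands for AGGTCA and GGGTCA (reverse complements TGACCT and TGACCC, no overlaps between them) in windows of this length found a match in 14 of the 55 members that RefSeq's table holds, 25.5%, against 26.4% of 27025 genes. Among members with an unadjusted p under 0.05, 7 of 15 that were lower and 0 of 2 that were higher had a match, as did 5 of 29 other tested members. A gene counted if any of its RefSeq starts had a match. Sema6b and Sema6c, both among the lower members, matched at 1 start and had 0 matches at another. A match of these letters is not a binding site. The other members with no entry were Dcc, Ntn1, Plxna1, Plxna4, Sema3b, Sema3f, Sema6a, Slit1 and Unc5d.

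Of the class 6 genes, transmembrane semaphorins that signal through A-type plexins, 2 of 4 were lower at the study's threshold, beside 4.10% of all genes. Sema6b had 7.99, 4.63, 6.91 and 6.90 FPKM in the controls and 3.39, 3.19, 4.93 and 4.19 FPKM in the mutants. Only control replicate 2 and mutant replicate 3 overlapped. Its log2 fold change was -0.68 with a standard error of 0.183 (limma, adjusted p = 0.0900), and it passed the study's threshold in all 8 fits with 1 library left out. Without control replicate 2 it was -0.83 (limma, adjusted p = 0.0407). Sema6c had 5.74, 10.3, 6.98 and 7.37 FPKM in the controls and 4.71, 4.60, 4.16 and 5.73 FPKM in the mutants, which part the groups by a hair between control replicate 1 and mutant replicate 4. Its log2 fold change was -0.59 (limma, adjusted p = 0.104), and -0.44 without control replicate 2, when it did not pass the study's threshold. Sema6a ranged from 7.43 to 9.0 FPKM in controls and from 3.22 to 9.97 FPKM in mutants, and Sema6d from 2.74 to 3.50 and from 3.27 to 4.08 FPKM, both overlapping.

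The class 3 semaphorins are secreted ligands that use neuropilins and plexins. Of 6 tested, 1 was lower (4.10% of all genes) and 1 higher (4.70% of all genes) at the study's threshold. Sema3g, known as a product of arterial endothelium, had 8.04, 9.43, 5.57 and 5.40 FPKM in controls against 3.55, 4.03, 4.93 and 5.51 FPKM in mutants, so only mutant replicate 4 exceeded a control, the lowest. Its log2 fold change was -0.58 (limma, unadjusted p = 0.0190, adjusted p = 0.155), and it passed the study's threshold in 5 of 8 fits with 1 library left out. Without control replicate 2 it was -0.44 and no longer passed. Sema3b had 2.67, 5.86, 2.98 and 3.28 FPKM in controls and 5.15, 4.66, 6.08 and 5.37 FPKM in mutants. Control replicate 2 lay among the mutants and the other 3 controls below them all. The log2 fold change of Sema3b was 0.52 (limma, adjusted p = 0.211) with all libraries and 0.74 without control replicate 2 (limma, adjusted p = 0.0267), and it passed the study's threshold in 2 of 8 fits with 1 library left out. Without mutant replicate 3 it did not, at 0.46 (limma, unadjusted p = 0.0895). Sema3c, the most abundant semaphorin, had 25.2, 42.6, 24.1 and 25.5 FPKM in controls and 29.0, 22.6, 33.1 and 22.9 FPKM in mutants, a log2 fold change of -0.10 that became 0.09 without control replicate 2. Sema3a, Sema3e and Sema3f had log2 fold changes of 0.29 to 0.33 and unadjusted p-values of 0.0652 to 0.570. Without control replicate 2, Sema3e passed the study's threshold at 0.87 (limma, unadjusted p = 0.00986).

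Of the remaining semaphorins, Sema5a and Sema4g were lower at an unadjusted p under 0.05 without reaching 1.4-fold. Sema5a, a large membrane ligand of plexins, had 21.9, 24.1, 23.6 and 21.7 FPKM in controls and 20.8, 17.9, 19.2 and 12.7 FPKM in mutants, all of them below the controls (log2 fold change -0.38, limma adjusted p = 0.182). Sema4g ranged from 2.15 to 3.46 FPKM in controls and from 1.42 to 2.67 FPKM in mutants. Sema4a, a ligand on immune and other cells and the next most abundant semaphorin after Sema3c, had 17.3 to 26.5 FPKM in controls and 19.9 to 46.1 FPKM in mutants, which overlapped. Its log2 fold change was 0.46 (limma, unadjusted p = 0.0927) and, without mutant replicate 3, 0.64, past the study's threshold. Sema4b, Sema4c, Sema4d and Sema5b overlapped too, and Sema3d and Sema4f were under the filter. Over the family, 5 of 18 tested genes passed the study's threshold, 4 lower (beside 4.10% of all genes) and 1 higher (beside 4.70%), and the median log2 fold change was -0.05.

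Among the plexins, the receptors of the semaphorins, Plxna2 and Plxna3 were lower in every mutant. Plxna2, a receptor of class 6 semaphorins, had 2.13, 1.90, 1.89 and 1.34 FPKM in controls and 0.964, 1.00, 1.04 and 0.812 FPKM in mutants. The groups did not overlap, and Plxna2 fell with a log2 fold change of -0.66 and a standard error of 0.130 (limma, adjusted p = 0.0422). In the 8 fits with 1 library left out the adjusted p was 0.0374 to 0.121 and under 0.05 in 1 of them, that without control replicate 4. It was 0.0719 without control replicate 2 and 0.0672 without mutant replicate 3, and with all libraries it was 0.0594 with no filter on low values and 0.0511 with a filter at 1 FPKM. Plxna3, which pairs with neuropilin 2 as a receptor of Sema3f, had 8.57, 7.36, 5.61 and 5.53 FPKM in controls and 4.54, 4.44, 3.36 and 4.06 FPKM in mutants. It too parted the groups, with a log2 fold change of -0.64 (limma, adjusted p = 0.0702). Plxna2 occupies bases 194618218 to 194816869 of chromosome 1 in mm10, plus strand.

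The other plexins did not pass the study's threshold. Plxna1 had 8.68 to 11.1 FPKM in controls and 7.17 to 12.1 FPKM in mutants, and Plxna4 was higher by a log2 fold change of 0.30 (limma, unadjusted p = 0.0285), at 1.02 to 1.36 and 1.33 to 1.83 FPKM. Plxnd1, the plexin of vascular endothelium and a receptor of Sema3e, had 22.7, 24.2, 15.5 and 16.6 FPKM in controls and 15.1, 12.0, 18.2 and 11.6 FPKM in mutants (log2 fold change -0.46, limma adjusted p = 0.220). Mutant replicate 3 lay among the controls and the other 3 mutants below them, and without it the log2 fold change of -0.58 passed the study's threshold. Plxnb2, a receptor of class 4 semaphorins and the most abundant of all 65 genes, had 41.4, 42.7, 42.3 and 38.1 FPKM in controls and 49.7, 44.6, 52.1 and 39.9 FPKM in mutants (log2 fold change 0.17, limma adjusted p = 0.331). Plxnb1 spread from 16.0 to 45.0 FPKM in controls and from 12.5 to 33.4 FPKM in mutants.

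**Figure D3:**
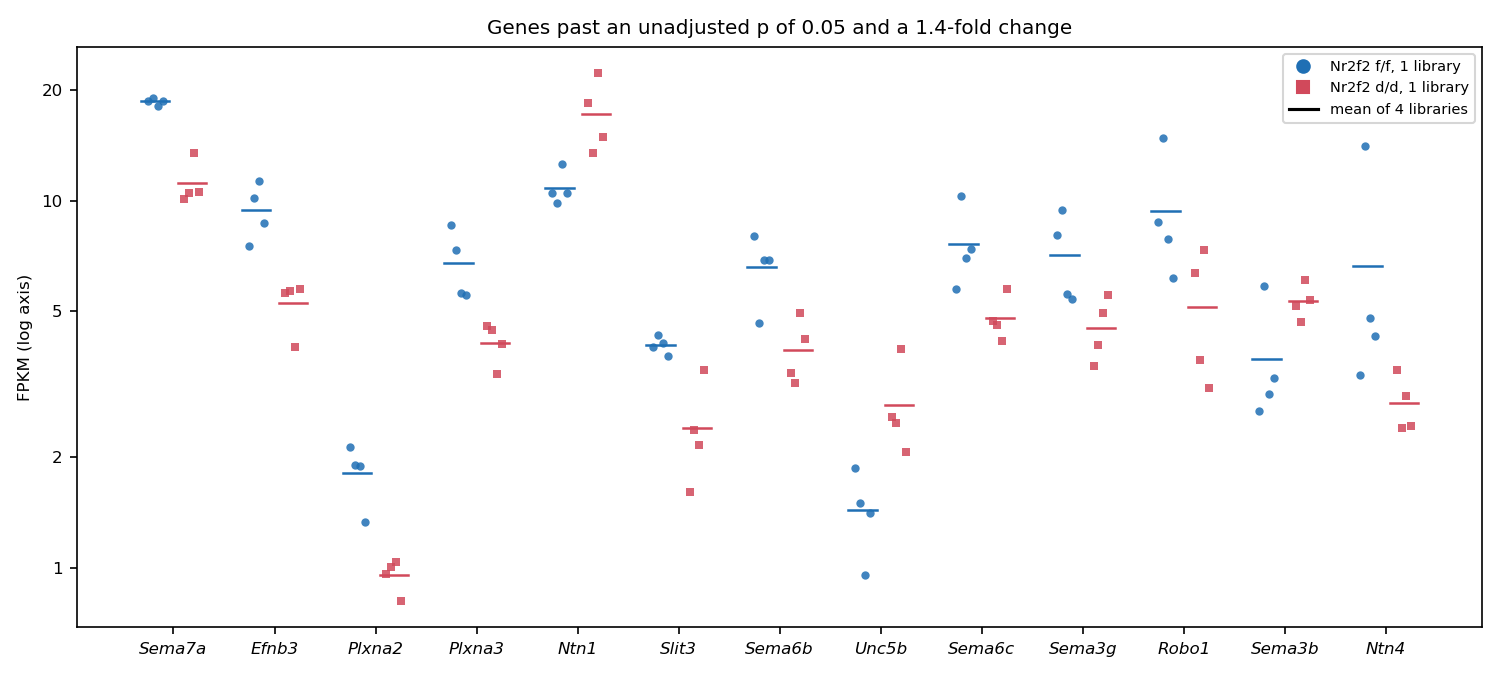
FPKM of the 13 genes past the study's threshold in each uterus, on a log axis, with a bar at the mean of 4 libraries; circles are Nr2f2 f/f and squares Nr2f2 d/d. Sema7a, Efnb3, Plxna2, Plxna3, Slit3, Sema6c, Ntn1 and Unc5b part the groups, and Sema6b, Sema3g, Robo1, Sema3b and Ntn4 overlap.

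Of the ephrins, Efnb3 passed both thresholds. It encodes a transmembrane ligand of B-type Eph receptors. It had 7.51, 10.2, 11.3 and 8.69 FPKM in controls and 5.61, 5.68, 3.99 and 5.74 FPKM in mutants, with every mutant below every control. Efnb3 fell with a log2 fold change of -0.78 and a standard error of 0.154 (limma, adjusted p = 0.0421; exact permutation p = 0.0286). No fit with 1 library left out kept its adjusted p under 0.05, at 0.0601 to 0.106 (0.0738 without control replicate 2 and 0.0607 without mutant replicate 3), while all 8 kept it past the study's threshold. With all libraries its adjusted p was 0.0594 with no filter on low values and 0.0519 after quantile normalization. Efnb3 occupies bases 69554092 to 69560205 of chromosome 11 in mm10, minus strand.

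The other ephrins overlapped between the groups and did not pass the study's threshold with all libraries. Efna1, an endothelial and epithelial ligand and the most abundant ephrin, had 26.8, 28.1, 15.3 and 15.9 FPKM in controls and 14.1, 14.9, 18.7 and 15.4 FPKM in mutants (log2 fold change -0.39, limma adjusted p = 0.335). Control replicates 1 and 2 were high, and the other 2 controls lay among the mutants. Efna1 passed the study's threshold without control replicate 3 (-0.53) or 4 (-0.51). Efnb1 had 14.4, 9.96, 11.1 and 10.2 FPKM in controls and 9.93, 8.33, 12.0 and 7.75 FPKM in mutants. Efna4 had a log2 fold change of 0.45 (limma, adjusted p = 0.261), past the study's threshold without control replicate 3 (0.58) or 4 (0.53), and 10.5% of its exon bases are shared with a gene on the opposite strand. Efna2, Efna3 and Efna5 had log2 fold changes of -0.25, 0.08 and 0.07.

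Of the Eph receptors, 0 of 10 tested passed the study's threshold, beside 8.80% of all genes. The 3 with an unadjusted p under 0.05 (21.2% of all genes) all parted the groups (15.4% of all genes). Epha3 had 0.590, 0.689, 0.774 and 0.750 FPKM in controls and 0.410, 0.461, 0.406 and 0.391 FPKM in mutants, a log2 fold change of -0.39 (limma, adjusted p = 0.0841, but 0.0408 with no filter on low values and 0.0393 without limma's trend). The mutant mean was 59.5% of the control mean, and the 0.5 added before the log makes the fold smaller at such levels. Ephb6, a receptor without kinase activity, had 4.78, 5.08, 4.39 and 4.00 FPKM in controls and 3.69, 3.67, 2.94 and 3.20 FPKM in mutants, also -0.39 (limma, adjusted p = 0.0896). Epha7 was higher, with 0.531, 0.588, 0.533 and 0.533 FPKM in controls and 0.768, 0.811, 1.13 and 0.655 FPKM in mutants (log2 fold change 0.35, limma adjusted p = 0.176), and without mutant replicate 3 its unadjusted p was 0.0518.

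The 2 most abundant Eph receptors were Epha1 and Ephb3. Epha1, an epithelial receptor, had 9.45, 24.7, 4.61 and 5.46 FPKM in controls and 5.96, 5.44, 4.62 and 6.05 FPKM in mutants, with control replicate 2 far above the rest. Its log2 fold change was -0.64 (limma, adjusted p = 0.446), and -0.17 without that library. Ephb3 had 5.11, 7.05, 5.77 and 5.56 FPKM in controls and 6.18, 6.67, 8.42 and 7.54 FPKM in mutants, a log2 fold change of 0.27 (limma, adjusted p = 0.252). Epha2, Epha4, Epha8, Ephb1 and Ephb2 overlapped, with Epha8 the most spread, at 0.338 to 2.89 FPKM in controls and 0.911 to 5.25 FPKM in mutants. Its log2 fold change was 0.76 (limma, adjusted p = 0.448), and without mutant replicate 3 it was 1.17 and passed the study's threshold (limma, unadjusted p = 0.0402).

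In the netrin group, Ntn1 and the receptor Unc5b were both higher in every mutant than in any control. Ntn1 encodes netrin 1, a secreted laminin-related cue. It had 10.5, 9.85, 12.6 and 10.5 FPKM in controls and 18.4, 13.5, 22.2 and 14.9 FPKM in mutants, a log2 fold change of 0.62 with a standard error of 0.156 (limma, adjusted p = 0.0742). Unc5b, a netrin receptor of endothelium and other cells, had 1.87, 1.5, 0.953 and 1.41 FPKM in controls and 2.58, 2.49, 3.94 and 2.07 FPKM in mutants, a log2 fold change of 0.75 with a standard error of 0.203 (limma, adjusted p = 0.0924). Each passed the study's threshold in all 8 fits with 1 library left out and the adjusted threshold in 0. With both libraries that stood apart left out, Ntn1 no longer passed the study's threshold.

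Ntn4, a basement-membrane netrin, had 3.35, 14.0, 4.79 and 4.29 FPKM in controls and 3.46, 2.40, 2.93 and 2.43 FPKM in mutants. Control replicate 2 was far above the rest, and mutant replicate 1 overlapped the lowest control. The log2 fold change of Ntn4 was -0.90 (limma, unadjusted p = 0.0437, adjusted p = 0.223) and -0.49 without control replicate 2, when it still passed the study's threshold. It did not pass without control replicate 3 or any 1 of the mutants, at -0.93 (limma, unadjusted p = 0.0702) without mutant replicate 3. Neo1, or neogenin, a receptor of netrins and of RGM proteins, had 11.6, 13.9, 12.7 and 11.8 FPKM in controls and 10.9, 11.1, 11.4 and 10.1 FPKM in mutants. These do not overlap, but the log2 fold change was only -0.19 (limma, adjusted p = 0.222). Ntn3 and Unc5a had log2 fold changes of -0.25 and 0.09. Dcc, the classical netrin receptor, was scarce, at 0.274 to 0.770 FPKM in controls and 0.156 to 0.535 FPKM in mutants, and Ntn5, Unc5c and Unc5d were under the filter as well.

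Slit3 was lower in every mutant. It encodes a secreted repellent that binds Robo receptors. It had 3.99, 4.31, 4.10 and 3.77 FPKM in controls and 1.61, 2.38, 2.16 and 3.46 FPKM in mutants, with replicate 4 closest to the controls. The log2 fold change was -0.68 with a standard error of 0.176 (limma, adjusted p = 0.0799), and without mutant replicate 4 the adjusted p was 0.0279. Robo1, a receptor of the Slits, had 8.74, 14.8, 7.85 and 6.16 FPKM in controls and 6.36, 3.69, 7.35 and 3.08 FPKM in mutants. Its groups overlapped and its log2 fold change of -0.82 had a standard error of 0.324 (limma, adjusted p = 0.201). Robo1 passed the study's threshold in 4 of 8 fits with 1 library left out, and without control replicate 2 it did not, at -0.59 (limma, unadjusted p = 0.0825). Robo2 ranged from 3.49 to 8.71 FPKM in controls and from 2.31 to 5.35 FPKM in mutants, and Slit2 from 0.504 to 0.853 and from 0.804 to 1.11 FPKM.

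Slit1 was under the filter and is named because of its values. It had 0.030, 0.062, 0.054 and 0.034 FPKM in controls and 0.581, 0.158, 1.17 and 0.067 FPKM in mutants, which do not overlap (exact permutation p = 0.0286), though mutant replicate 4 is close to the controls. When the filter was lifted, its adjusted p in limma was 0.269. Of the other genes under the filter, Epha10 was at or below the worth of 3 fragments in all 8 libraries, and Epha5, Epha6, Robo3 and Plxnb3 were low in both groups.

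**Figure D4:**
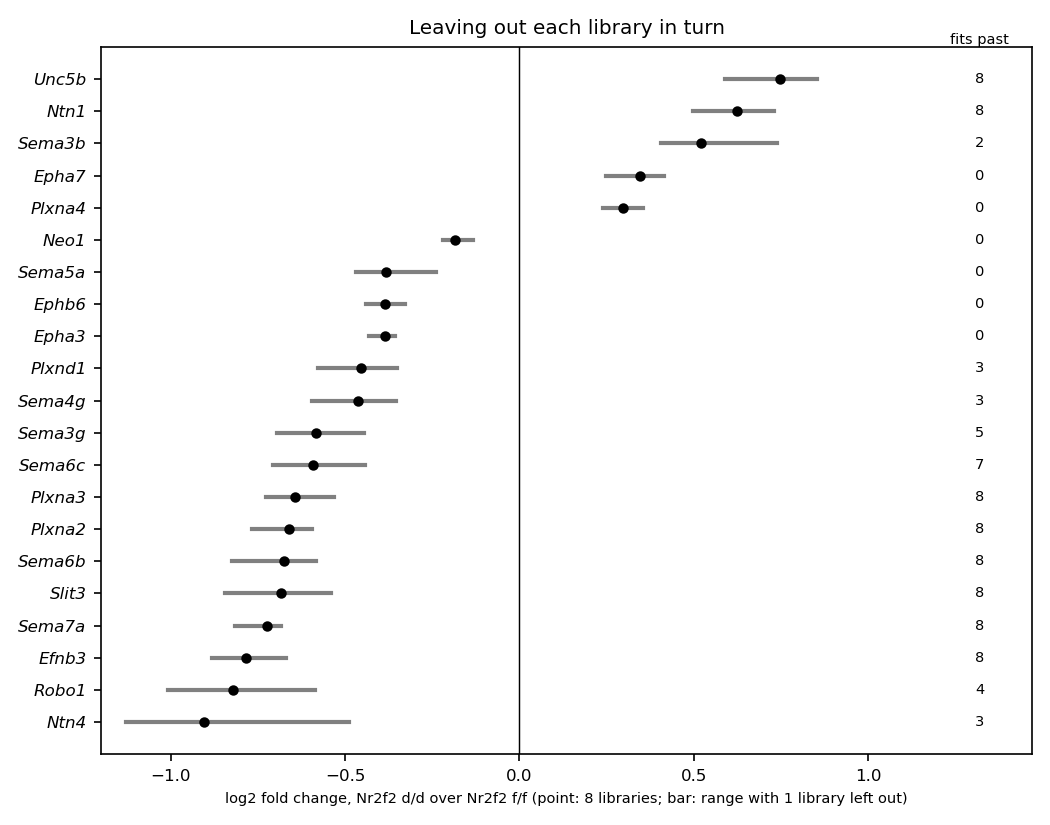
The log2 fold change of the 21 members with an unadjusted p under 0.05, as a point for all 8 libraries and a bar for the range when each library is left out. The number on the right is how many of the 8 fits passed the study's threshold: 8 for Unc5b, Ntn1, Plxna3, Plxna2, Sema6b, Slit3, Sema7a and Efnb3, and 3 for Ntn4.

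Among co-receptors and modulators of these pathways, 3 of 21 genes tested passed the adjusted threshold, 14.3% beside 2.62% of all genes. This list, like those below, was chosen with earlier results of these data known, so its shares are descriptive only. Of 26 on the list, 25 were in the table under the symbol used and 21 were tested, with a median log2 fold change of -0.18, and 5 passed the study's threshold, 2 higher and 3 lower, 23.8% beside 8.80% of all genes. Nrp2, or neuropilin 2, a co-receptor of class 3 semaphorins and of VEGF-C, had 5.07, 5.39, 4.86 and 5.09 FPKM in controls and 3.04, 2.95, 3.12 and 3.19 FPKM in mutants. It fell with a log2 fold change of -0.65 (limma, adjusted p = 0.00795). Adora2b, an adenosine receptor described as a netrin 1 partner, had 1.54, 1.36, 1.29 and 1.45 FPKM in controls and 0.492, 0.426, 0.380 and 0.466 FPKM in mutants, and it fell with a log2 fold change of -1.02 (limma, adjusted p = 0.00549). Both passed the adjusted threshold in all 8 fits with 1 library left out. Flrt1, a partner of Unc5 receptors, rose, with 0.306 to 0.482 FPKM in controls and 0.930 to 1.66 FPKM in mutants (log2 fold change 0.94, limma adjusted p = 0.0231, under 0.05 in 3 of 8 fits with 1 library left out). Robo4, the endothelial Robo, had 10.7 to 15.9 FPKM in controls and 7.15 to 9.14 FPKM in mutants (log2 fold change -0.68, limma adjusted p = 0.0517), and Nrp1 had 14.9 to 18.0 and 11.6 to 15.3 FPKM.

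The cytoplasmic effectors, through which these receptors act on GTPases and actin, held 2 genes past the adjusted threshold, both lower. Of 60 genes, 58 were tested, with a median log2 fold change of -0.10, and 4 were higher and 4 lower at the study's threshold, 13.8% beside 8.80% of all genes. The 2 past the adjusted threshold are 3.45%, near the 2.62% of all genes. Arhgef15, an exchange factor of endothelium that acts downstream of Eph receptors, had 11.8, 9.60, 9.38 and 10.3 FPKM in controls and 6.02, 6.03, 7.92 and 5.92 FPKM in mutants, and it fell with a log2 fold change of -0.63 (limma, adjusted p = 0.0335). Trio, an exchange factor downstream of netrin receptors, had 8.93 to 11.7 FPKM in controls and 6.65 to 7.61 FPKM in mutants, and it fell with a log2 fold change of -0.49 (limma, adjusted p = 0.0392). Arhgef15 and Trio each kept an adjusted p under 0.05 in 2 of 8 fits with 1 library left out. Vav3, an exchange factor used by Eph receptors, had 2.94, 2.90, 5.43 and 4.05 FPKM in controls and 10.2, 7.89, 6.92 and 6.44 FPKM in mutants (log2 fold change 0.97, limma adjusted p = 0.0529).

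Markers of several cell types that could carry these genes differed as well. Beside the marker counts that follow, 4.10% of all genes were lower and 4.70% higher at the study's threshold. At the adjusted one these shares were 1.53% and 1.09%. Of 12 endothelial markers, 10 were lower at the study's threshold and 7 at the adjusted one, with a median log2 fold change of -0.73. Their summed level was 394.9 to 531.0 FPKM in controls and 253.2 to 316.7 FPKM in mutants. Pecam1, an endothelial adhesion molecule, had 70.9, 61.3, 48.4 and 54.5 FPKM in controls and 27.6, 28.6, 33.6 and 34.4 FPKM in mutants, and Cldn5 did not follow, with a log2 fold change of 0.10. The 6 pericyte markers summed to 176.9 to 211.9 FPKM in controls and 126.4 to 142.8 FPKM in mutants. All 6 had a log2 fold change below 0, but only 1 was lower at the study's threshold. In whole tissue, fewer cells of a type and less RNA per cell cannot be told apart. The part of the vessel markers in the lower levels of Sema7a, Sema3g, Plxnd1, Robo4, Nrp2, Arhgef15 and the other guidance genes was not tested.

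Of 12 epithelial markers, 4 were higher at the study's threshold and 2, Krt8 and Elf3, at the adjusted one, with a median log2 fold change of 0.32. Their summed level was 881.3 to 949.5 FPKM in controls and 1179 to 1273 FPKM in mutants. The keratin Krt19 had means of 65.6 and 164.1 FPKM and Krt8 of 114.5 and 192.3 FPKM, while Epcam (91.9 and 93.5 FPKM), Krt18 (127.1 and 130.2 FPKM) and Cldn4 (38.7 and 37.3 FPKM) were close between the groups. The part of the epithelial markers in the higher Ntn1 and Sema3b was not tested.

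Gland markers summed to 3504 FPKM in control replicate 2, to 201.2 to 687.9 FPKM in the other controls, and to 61.6 to 153.9 FPKM in mutants, and 2 of the 8 were lower at the study's threshold. In control replicate 2, Prss29 (1444 FPKM), Spink1 (1332 FPKM), Prss28 (509.7 FPKM) and Sult1d1 (213 FPKM) made up most of the sum. Foxa2 (3.24 FPKM), Lif (0.647 FPKM), Cxcl15 (1.18 FPKM) and Ttr (0.492 FPKM) were the lowest of the controls in that library, so the list did not move as one. The same library held the highest Ntn4, Sema3c, Sema3e, Epha1, Sema3b and Sema6c of its group, and the part of the gland markers in those values was not tested.

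The 12 stromal markers went both ways, 5 higher and 3 lower at the study's threshold, with a median log2 fold change of -0.13. Their sum was 1956 to 2260 FPKM in controls and 2698 to 5090 FPKM in mutants. Col1a1 (means of 174.6 and 607.9 FPKM), Col1a2 (237.4 and 694.3 FPKM), Col3a1 (431.3 and 783.8 FPKM) and Dcn (410.4 and 704.6 FPKM) were higher, and Hand2 (50.9 and 31.2 FPKM, limma adjusted p = 0.0388), Vim (379.5 and 237.1 FPKM) and Thy1 (90.8 and 63.2 FPKM) were lower. Of the T and NK cell markers tested, 7 of 7 had a log2 fold change above 0 and 4 were higher at the study's threshold, with sums of 40.5 to 62.1 FPKM in controls and 50.9 to 263.8 FPKM in mutants. Mutant replicate 4 held the highest of these sums and the highest Sema4a, and the part of these cells in Sema4a was not tested. Of 10 macrophage markers, 9 had a log2 fold change above 0 and 1, Lyz2, was higher at the study's threshold, with sums of 266.0 to 520.3 FPKM in controls and 410.8 to 706.8 FPKM in mutants. Of 10 smooth muscle markers, 0 passed the study's threshold and 0 had an unadjusted p under 0.05 in limma, with sums of 1384 to 1956 FPKM in controls and 1128 to 2718 FPKM in mutants. Mesothelial markers were higher at the study's threshold for 3 of 6 tested, with sums of 69.9 to 96.1 FPKM in controls and 95.3 to 113.1 FPKM in mutants.

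Of 16 nerve and Schwann cell markers, 4 were tested, and their median log2 fold change was 0.00. Nefl, a neurofilament, was listed at 0 in all 4 controls and at up to 0.0140 FPKM in mutants, and Th, Nefm, Snap25 and Sox10 were at or under 0.0660 FPKM in all 8 libraries. Others were measurable: Uchl1, a neuronal hydrolase, had 0.906 to 2.45 FPKM over the 8 libraries. Under the filter, Prph had 0.322 to 0.925 FPKM in controls and 0.220 to 0.376 FPKM in mutants (means of 0.653 and 0.271). Tubb3 had 0.066 to 0.547 and 0.073 to 0.194 FPKM (means of 0.30 and 0.15). Both had lower means in mutants but overlapped, and Nefh had means of 0.30 and 0.32 FPKM. Dbh, the enzyme that makes noradrenaline, was under the filter, with 0.042 to 0.236 FPKM in controls and 0.304 to 1.84 FPKM in mutants, which do not overlap. Mbp, a myelin protein, was higher at the study's threshold (log2 fold change 0.61, limma adjusted p = 0.133; 0.0476 without control replicate 2). Gap43, a growth-cone protein, had 8.39, 5.07, 14.6 and 13.0 FPKM in controls and 2.76, 4.02, 5.94 and 3.82 FPKM in mutants, which overlap between control replicate 2 and mutant replicate 3 (log2 fold change -1.16, limma adjusted p = 0.105; 0.0416 without control replicate 2). Gap43 was lower at the study's threshold, also in all 8 fits with 1 library left out. The whole list summed to 12.8 to 20.1 FPKM in controls and 10.3 to 14.1 FPKM in mutants, and without Gap43 to 5.43 to 7.71 FPKM in controls and 6.91 to 8.19 FPKM in mutants, which turns the direction.

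**Figure D5:**
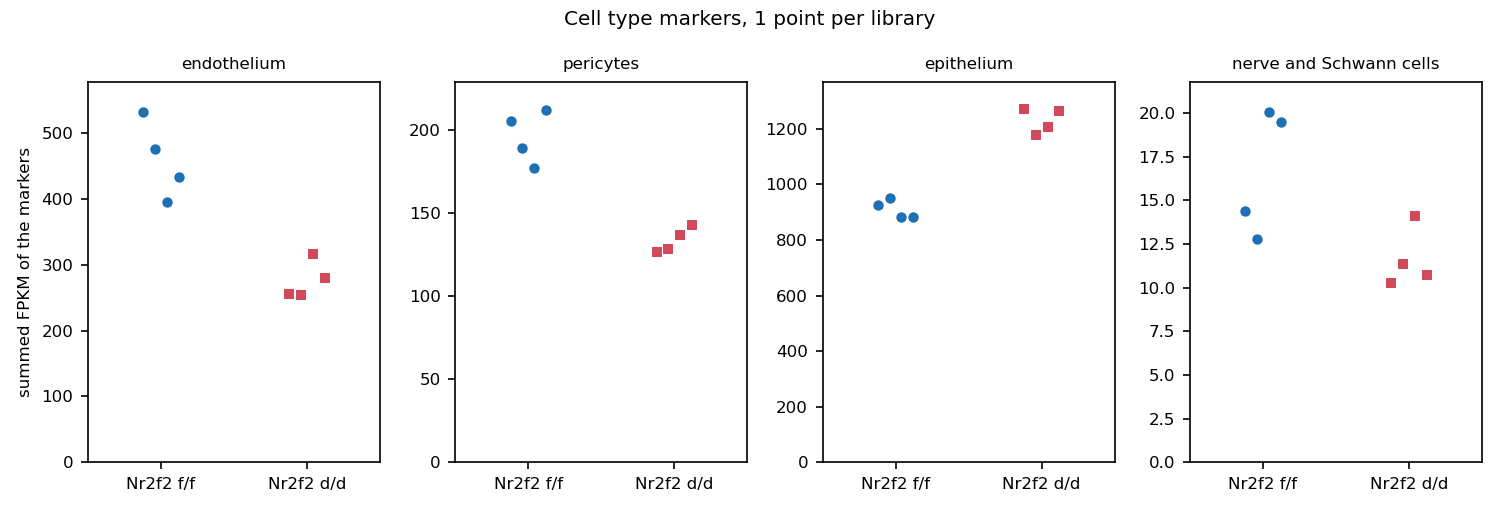
Summed FPKM of the markers of endothelium, pericytes, epithelium, and nerve and Schwann cells in each uterus, on axes that start at 0; circles are Nr2f2 f/f and squares Nr2f2 d/d. Endothelial and pericyte sums are lower in all 4 mutants, epithelial sums are higher in all 4, and nerve sums overlap.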

How the data were processed

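Whole-uterus RNA was sequenced as 76-bp paired-end reads from 4 Nr2f2 f/f and 4 Nr2f2 d/d mice. The authors deposited FPKM, aligned to mm10; their processing notes name cutadapt 1.12, STAR 2.5.2b, featureCounts 1.5.0-p1 and Cufflinks 2.0.2. The annotation, strand setting and FPKM formula are not given in the sources used here, so overlapping genes are uncertain. FPKM are relative to a library's total.

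Values were taken to log2(FPKM + 0.5), which understates the change of low genes, and genes averaging 0.5 FPKM or more (14323) were tested with limma 3.58.1 in R 4.3.3 (eBayes with trend, two-sided, Benjamini-Hochberg adjustment), in place of the study's count model; the fit was tested on simulated data. Exact permutation tests ran over the 70 arrangements of the 8 libraries. Depth was recovered by finding the library total at which most FPKM of short single-exon genes became whole fragments within 0.05, 71.2% to 76.8% of them, against medians of 6.0% to 6.6% at other totals; floors of 3 fragments cover counting error only. Coordinates are from GENCODE vM21 and promoters from RefSeq GRCm38.p6. Figures were drawn with Python 3.11.15.

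The members and lists were chosen with earlier results of these data known. Members with an unadjusted p under 0.05, the 2 most abundant of each family, pathway genes with an adjusted p under 0.05 or among the 3 smallest p of their list, and Nr2f2 were named by rule. Other genes are named to account for the families, and Slit1, Plxnc1, Itgb1, Nrp1, Robo4 and the markers were named after their values were seen. The alternatives were 0.1 or 1 added, no filter or a mean of 1 FPKM, median-ratio and quantile scaling, other variance models, the replicate number as a block, and each library left out. Leaving out both libraries that stood apart was chosen after seeing the data.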

Additional observations from a re-analysis of the deposited data

Results flagged for a closer look

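In 120 groups of 4 libraries examined, 10 values lay apart from the other 3 by Dixon's criterion, where chance gives about 1 in 20 groups. Of the 10, 5 were in Nr2f2 f/f replicate 2 and 5 in Nr2f2 d/d replicate 3. In Nr2f2 f/f replicate 2, Sema3e had 4.55 FPKM against 0.499 to 0.635 in the other controls, Ntn4 14.0 against 3.35 to 4.79, Sema3c 42.6 against 24.1 to 25.5, Sema6a 9.0 against 7.43 to 7.69, and Epha7 0.588 against 0.531 to 0.533. Without this library Sema3e passed the study's threshold as higher in Nr2f2 d/d, with a log2 fold change of 0.87. In Nr2f2 d/d replicate 3, Sema7a had 13.4 FPKM (13.45 before rounding) against 10.1 to 10.5 in the other mutants, Efna3 1.22 (1.215) against 0.412 to 0.542, Efnb3 3.99 against 5.61 to 5.74, Arhgef15 7.92 against 5.92 to 6.03, and Nr2f2 itself 6.90 against 9.42 to 9.74.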

How the results depend on the processing

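With each library left out in turn, 10 to 16 members passed the study's threshold, 7 to 13 of them lower, and 0 to 3 passed the adjusted one: 0 without Nr2f2 f/f replicate 1 or Nr2f2 d/d replicates 1 and 2, 1 (Sema7a) without Nr2f2 f/f replicate 3 or Nr2f2 d/d replicate 3. In these fits 7.55% to 10.1% of all genes passed the study's threshold, and in the 3 with 0 members adjusted calls fell to 0.293% to 0.433% of all genes, from 2.62%. With both libraries that stood apart left out, 5 of the 14 members past the study's threshold were higher. In that fit 9.37% of all genes passed it in either direction. Median-ratio scaling gave 12 and 3 members at the 2 thresholds, beside 8.71% and 2.54% of all genes. Quantile normalization gave 14 and 2 (Efnb3 lost), beside 8.53% and 2.65% of all genes. With no filter 2 members, Sema7a and Epha3, had an adjusted p under 0.05, with a filter at 1 FPKM Sema7a and Efnb3, and without limma's trend Epha3 besides the first 3. Sema7a kept its call under every setting but the block (adjusted p 0.1205) and 3 of the fits with 1 library left out. The log2 fold change of Sema3c, -0.10 with all libraries, ranged from -0.21 to 0.088 with each left out and was above 0 only without Nr2f2 f/f replicate 2; the cause was not tested. Replicate numbers that the groups share were checked for pairing: the deviations of same-numbered libraries correlated at -0.204, -0.172, 0.045 and -0.04. These are the numbers of the titles. The columns are numbered 1, 2, 3 and 5 in Nr2f2 f/f and 1, 3, 4 and 5 in Nr2f2 d/d. By those the shared pairs correlated at -0.204, 0.149 and -0.04. Neither numbering showed pairing, but so few pairs cannot show that the mice were unpaired. With the titles' replicate number as a block, 10 members passed the study's threshold, beside 8.68% of all genes. At the adjusted threshold 0 members passed, where 1 gene of all did. Nr2f2 kept its log2 fold change of -1.39 (limma, adjusted p = 0.0714). With 4 mice a group, exact permutation p cannot go below 0.0286, and genes under 0.5 FPKM were not tested.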
